A study of Mus musculus with 14 samples.

Results

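Accessible chromatin was described at 10 genes that carry, sense, store, oxidise or scavenge iron and haem in mouse liver: Trf, Tfr2, Tfrc, Hamp, Hfe, Fth1, Ftl1, Cp, Hpx and Hp. These are 10 of 21896 protein-coding genes of the RefSeq annotation. An interval of the deposited tables belonged to a gene if its midpoint lay inside the gene, and otherwise if that gene was the nearest one within 50 kb. Where a midpoint lay inside several genes, a gene of this set took precedence, and otherwise the shortest gene did. By this rule the genes held 118 of 105801 intervals in the high-fat diet (HFD) table and 116 of 88203 in the chow table. The farthest interval lay 26100 bp outside its gene, so none was near the limit of 50 kb. The gene set was chosen by function and on measured values: it was proposed after the LKO over floxed fold changes of both diets, and the loss at Trf on HFD among them, had been seen. Differences between genotypes within a diet are therefore given as a description, with fold changes and standard errors (SE) and without p-values.

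The assay was ATAC-seq, in which a transposase cuts and tags open DNA, on nuclei from 50 mg of frozen liver. Liver-specific knockout (LKO) mice carried floxed alleles of Matr3, whose product matrin-3 binds nucleic acids in the nuclear matrix, together with an Albumin-Cre transgene, and floxed littermates served as controls. All 14 mice were female and received their diet from 7 weeks of age for 16 weeks. Groups were compared in pairs: 4 LKO with 4 floxed mice on a diet with 60 kcal% fat, and 3 LKO with 3 floxed mice on chow. Albumin-Cre acts mainly in hepatocytes, and cells of an LKO liver in which it is not active keep the floxed gene intact. Fasting for 12 h before tissue was taken is stated for animals on HFD, and no feeding state is stated for animals on chow. Females were numbered singly in the titles, so each library was read as 1 animal.

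Hepatocytes make most of the iron proteins of plasma. Transferrin carries iron to cells, hepcidin (the product of Hamp) limits iron release into blood by removing the exporter ferroportin, and ferritin stores iron inside cells. Caeruloplasmin oxidises iron for loading onto transferrin, while haemopexin and haptoglobin clear free haem and haemoglobin and are acute phase proteins.

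Promoter windows of 250 bases before the annotated start were taken from RefSeq (GRCm38.p6, the assembly that mm10 names), in which 8 of the 10 genes matched; Trf and Hp did not. Shown are Hamp, Hpx and Cp, because in these genes the strongest differences lay away from the start. Capitals mark letters that match a searched motif on either strand. In Hamp these are GGCGCC, a BMP response motif, and TTCNNNGAA, a STAT motif, whose first bases lie at -109 and -97 from the start. In Hpx they are TTGCNNAA, a C/EBP motif, at -200, and TGACNNNGC, an antioxidant response motif, at -95. In Cp they are a C/EBP motif at -70 from the second of its annotated starts.
Hamp, chr7:30944030-30944279, minus strand: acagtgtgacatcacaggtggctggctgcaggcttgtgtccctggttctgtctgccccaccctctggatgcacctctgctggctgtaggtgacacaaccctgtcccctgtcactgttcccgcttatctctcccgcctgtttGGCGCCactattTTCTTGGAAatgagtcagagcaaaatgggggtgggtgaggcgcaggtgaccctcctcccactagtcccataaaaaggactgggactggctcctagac
Hpx, chr7:105600117-105600366, minus strand: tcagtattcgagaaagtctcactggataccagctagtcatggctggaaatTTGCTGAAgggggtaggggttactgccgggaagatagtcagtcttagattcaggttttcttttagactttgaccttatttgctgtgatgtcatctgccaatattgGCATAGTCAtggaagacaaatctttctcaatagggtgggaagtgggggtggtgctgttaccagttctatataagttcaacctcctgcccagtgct
Cp, chr3:19956999-19957248, plus strand: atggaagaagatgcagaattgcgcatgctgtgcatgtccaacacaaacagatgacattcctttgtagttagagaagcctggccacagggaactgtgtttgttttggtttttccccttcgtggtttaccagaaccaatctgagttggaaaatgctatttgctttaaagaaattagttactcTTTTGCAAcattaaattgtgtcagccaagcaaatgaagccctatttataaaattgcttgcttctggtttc
Among all 32817 windows of this length, the BMP motif was found in 9.59%, the STAT motif in 7.01%, the C/EBP motif in 9.57% and the antioxidant motif in 10.2%. A match describes the letters of the window and is no measure of binding. Other windows held the hypoxia motif ACGTG (Tfr2 at 2 starts and Tfrc, in 16.6% of all windows), the HNF1 motif GTTAAT (Cp, in 6.44%) and the HNF4 core AAAGTCC (Tfr2, in 3.59%). The BMP motif was also found in Tfrc, the C/EBP motif in Fth1 and the antioxidant motif in Hfe, while no motif searched was found in the window of Ftl1. The E-box CACGTG, which contains the letters of the hypoxia motif, and the FOXA motif TGTTTAC were in no window of these genes, against 6.02% and 3.16% of all windows.

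Counts within intervals summed to 7.59 to 10.4 M per library in the HFD table and to 15.5 to 35 M in the chow table. Levels are read counts relative to library size (CPM) over intervals that are all 501 bp wide, fold changes are log2 of LKO over floxed, and an interval is called when its edgeR p, adjusted by Benjamini-Hochberg over the whole table, is under 0.05. The first principal component of the HFD table held 25.8% of the variance and placed LKO 3 and 4 at one end, at -69.8 and -68.7, and floxed 1, 2 and 4 between 38.8 and 71.4 at the other. In the chow table it held 42.3% and set the libraries numbered 2, the shallowest of each genotype, at 42.0 (LKO) and 86.5 (floxed), above all others. The 10 hepatocyte markers examined, among them Alb, Apoa1 and Ttr, all held intervals. Their summed level was 3333 to 4492 CPM in LKO and 3365 to 5888 CPM in floxed livers on HFD, and 4804 to 5543 CPM in LKO and 4999 to 6443 CPM in floxed livers on chow. Matr3 held 7 intervals per table with 0 called and fold changes between -0.78 and 0.13 on HFD and between -0.40 and 0.03 on chow. The place of the floxed part is not given in the labels, so these intervals do not check the genotype. In whole tissue, fewer cells of a type and less signal per cell cannot be told apart.

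On HFD, 8 intervals of the iron and haem genes fell in LKO livers, all at Trf, and 2 rose, both at Cp. In the whole HFD table, 0.303% of intervals were called lower and 0.448% higher. The median fold change was -0.13 over the 118 intervals and -0.00 over all intervals, with 78 of the 118 below 0. All LKO livers lay below all floxed livers at 11 of the 118 intervals and above them at 3, where 2.5% of all HFD intervals lay below and 2.8% above. DESeq2 called 4 of the 118 and limma 18, against 0.784% and 0.62% of the table. An unadjusted edgeR p under 0.05 was found at 45 of the 118, 29 of them at Trf, and at 10.2% of all HFD intervals. The genes were chosen with these fold changes seen, so the counts on either diet are no independent support. On chow, 0 of 116 intervals were called by edgeR, where 0.0227% of the whole table were. The same chow intervals gave 44 with an unadjusted p under 0.05, 27 of them at Trf, where 6.77% of the chow table had such a p. There were 16 calls by DESeq2 and 17 by limma, which called 0.617% and 0.768% of the chow table. Their median fold change was -0.24, against -0.00 over the chow table, with 85 of 116 below 0. LKO livers lay below all floxed livers at 41 chow intervals and above them at 1, where 6.04% of the table lay below and 5.63% above. The 41 were spread over Trf (26), Hpx (10), Hamp (4) and Cp (1).

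Each interval name carries a genotype label, but how intervals of both genotypes were merged is not described. At the 10 genes, 51 HFD intervals carried the LKO and 67 the floxed label, and 37 chow intervals carried the LKO and 79 the floxed label. The labels thus leaned to floxed livers at these genes on chow, whereas 44011 of all chow intervals carried the LKO and 44192 the floxed label. What a label means for the choice of an interval was not tested.

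**Figure D1:**
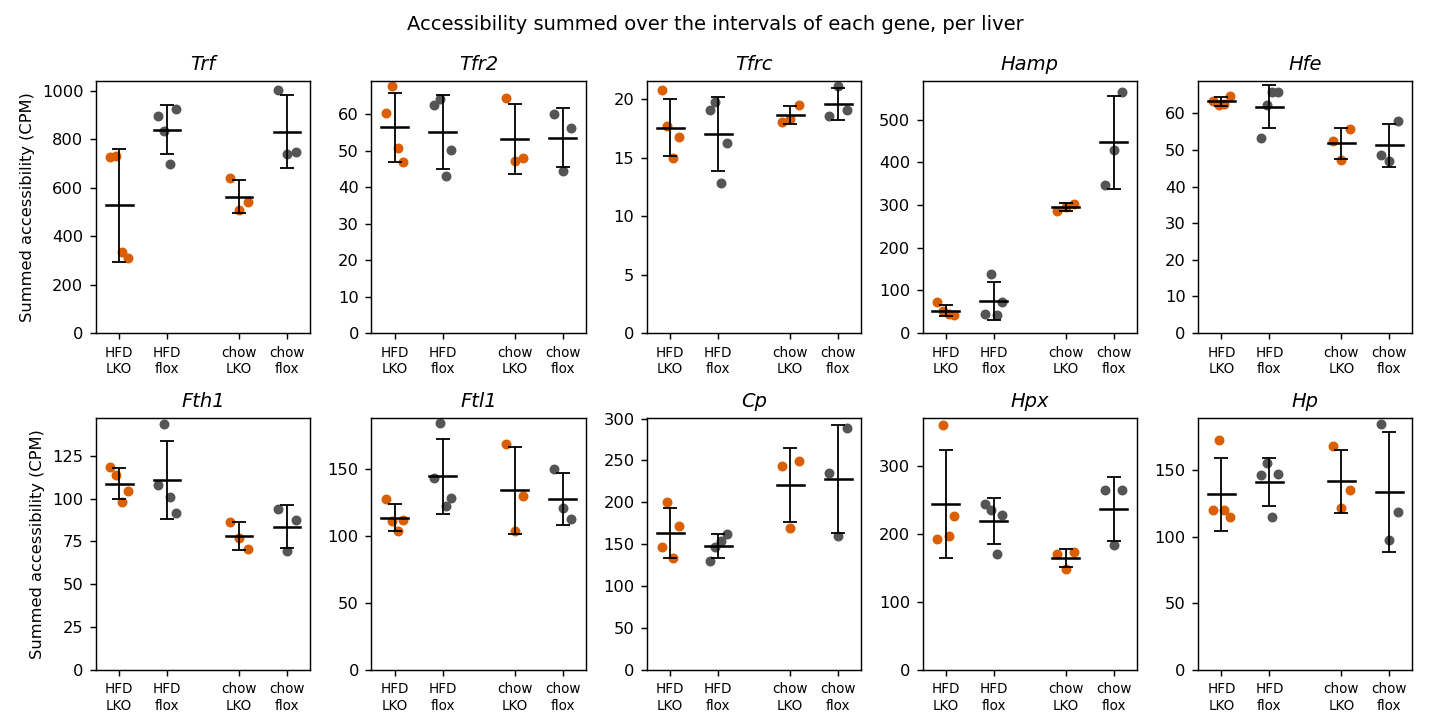
Summed accessibility (CPM over all intervals assigned to a gene) in every liver for the 10 genes, by diet, with LKO livers (orange) left of floxed livers (grey); lines and bars are means and SD (n = 4 per group on HFD, 3 on chow). Trf sums in HFD LKO livers split into 729 and 731 CPM in LKO 1 and 2 and 336 and 311 CPM in LKO 3 and 4, and on chow the LKO livers lie below all floxed livers for Trf, Hamp and Hpx. The share of all chow gene sums that separate in this way was not counted.

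Trf, encoding transferrin, lies at chr9:103208876-103230286 and is densely covered by accessible intervals, with gaps between them. It held 37 intervals on HFD and 39 on chow, more than 98.8% and 99.4% of genes with an interval. On HFD, 34 of the 37 fold changes were below 0, with a range of -1.23 to 0.08 and a median of -0.68, and 8 of the 37 were called. On chow, 34 of the 39 were below 0, with a range of -1.14 to 0.21 and a median of -0.51. None of the 39 was called by edgeR, although 27 had an unadjusted p under 0.05, against 6.77% of the chow table. DESeq2 called 9 and limma 12, against 0.617% and 0.768% of the chow table.

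The most accessible Trf interval on HFD, chr9:103207765-103208265, lies just outside the lower-coordinate bound of the gene. It held 46.7, 38.9, 21.5 and 20.1 CPM in LKO livers, against 72.8, 60.2, 44.2 and 57.8 CPM in floxed livers. LKO 3 and 4 were lowest, and LKO 1 lay above floxed 3, so the groups overlapped. The interval fell by 0.88 on the log2 scale (SE 0.17).

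Inside the gene, chr9:103209429-103209929 held 13.9, 17.8, 7.44 and 6.57 CPM in LKO livers, against 33.6, 24.9, 19.0 and 24.7 CPM in floxed livers. Here every LKO liver lay below every floxed liver, and the interval fell by 1.14 (SE 0.21). The neighbouring interval chr9:103210248-103210748 held 8.69, 9.38, 2.74 and 4.04 CPM in LKO livers, against 15.4, 16.2, 10.7 and 16.7 CPM in floxed livers. It also separated the groups and gave the largest Trf fold change on HFD, a fall of 1.23 (SE 0.24). The other 5 called intervals fell by 0.84 to 1.07 and separated the genotypes at chr9:103205847-103206347, chr9:103206934-103207434 and chr9:103212517-103213017. At chr9:103211201-103211701 and chr9:103214243-103214743 the groups overlapped, with LKO 2 above floxed 3 at both.

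Calls at Trf on HFD depended on the libraries. There were 4 without LKO 3, 2 without LKO 4, 5 without floxed 2 and 3 without floxed 4, but 17 without LKO 1 and 17 without LKO 2. The whole HFD table also moved, from 0.751% called with all libraries to 0.287% without LKO 4 and 1.06% without LKO 1. DESeq2 called 2 and limma 16. On chow, edgeR called 7 Trf intervals without floxed 2 and none when any other library was left out. Without floxed 2 it called 0.685% of the whole chow table, against 0.0227% with all libraries.

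**Figure D2:**
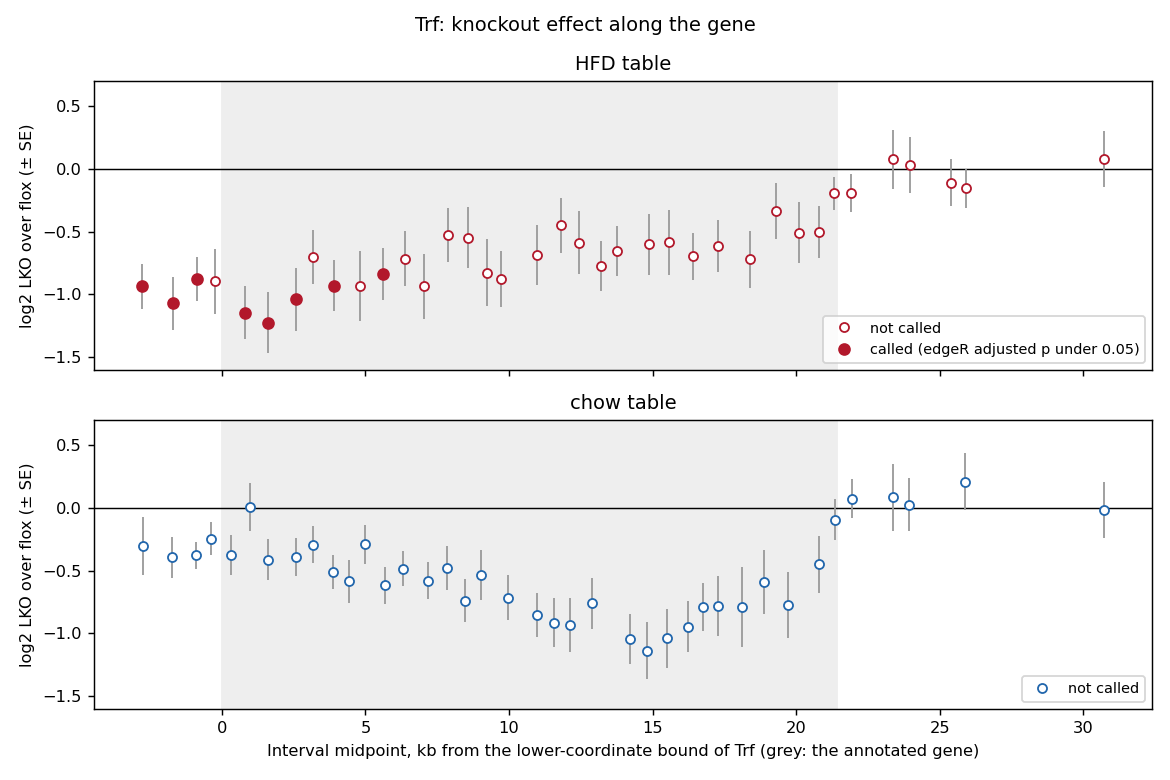
Log2 fold change, LKO over floxed, with its SE for each Trf interval against the distance of its midpoint in kb from the lower-coordinate bound of the gene, HFD above and chow below; grey marks the annotated gene and filled points are called. On HFD the called intervals lie at the left, while on chow the lowest points lie between 10 and 18 kb; both profiles return to about 0 past the upper bound.

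Stretches of the gene were drawn after the profile had been seen and are described only. On HFD, the 6 intervals below the lower bound or up to 2.5 kb inside it had a median of -1.0, and 5 of them were called. The 11 intervals between 2.5 and 10 kb had a median of -0.84 with 3 called, and the 9 between 10 and 18 kb had a median of -0.61 with 0 called. On chow the order was the reverse. The medians were -0.37 over 7 intervals, -0.52 over 12 and -0.92 over 10 for the same stretches. All LKO livers lay below all floxed livers at 12 of the 12 intervals in the second stretch and 9 of the 10 in the third. In the whole chow table this held for 6.04% of intervals. Neighbouring intervals come from the same livers, so these counts are not separate evidence. In the last 1 kb and beyond the upper bound, medians were -0.13 over 8 intervals on HFD and 0.03 over 7 on chow.

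The lowest chow p belonged to chr9:103222841-103223341, which held 21.2, 15.1 and 17.1 CPM in LKO livers, against 48.6, 31.6 and 30.3 CPM in floxed livers. The highest LKO liver stood well under the lowest floxed liver, with a fold change of -1.05 (SE 0.20). At the most accessible chow interval, chr9:103207725-103208225, LKO livers had 44.4, 40.6 and 38.2 CPM and floxed livers 54.9, 54.6 and 50.7 CPM, a fold change of -0.38 (SE 0.11) with no overlap. In 28 Trf intervals matched between the tables, the HFD minus chow difference ran from -1.13 to 0.56 with a median of -0.22. None was called by edgeR (smallest adjusted p = 0.302), with 2 at an unadjusted p under 0.05.

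Summed over its intervals, Trf had 729, 731, 336 and 311 CPM in HFD LKO livers, against 895, 836, 699 and 927 CPM in HFD floxed livers. LKO 3 and 4 were the lowest livers, and LKO 1 and 2 lay above floxed 3. The sum's fold change was -0.67 (SE 0.21), not called, and stayed between -0.87 and -0.49 when each library was left out in turn. LKO 3 and 4 are also the libraries at the low end of the first principal component, and their hepatocyte marker sums were 3333 and 4492 CPM, against 3365 to 5888 CPM in floxed livers. Of 386 hepatocyte marker intervals, 34 were called lower and 1 higher in HFD LKO livers, against 0.303% and 0.448% of the table. These calls lay in 4 of the 10 marker genes (Alb, Ttr, Apob and Tat), and the other 6 had none. The part of either in the Trf difference was not tested. On chow the sum was 639, 509 and 542 CPM in LKO livers, against 1005, 738 and 749 CPM in floxed livers, a fold change of -0.56 (SE 0.15) with no overlap.

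Among 10044 genes with at least 3 intervals, the HFD sums most like those of Trf across the 8 livers were those of Tomm40l, Ces1c and Cyp2b9. Likeness was the root mean square difference of centred log2 sums, which was 0.18, 0.23 and 0.23 for these genes and 0.58 for the median gene. Tomm40l encodes a protein of the mitochondrial import pore and averaged 128 ± 35.5 CPM in LKO and 211 ± 17.7 CPM in floxed livers (SD, n = 4). Ces1c, a carboxylesterase, averaged 114 ± 26.8 CPM in LKO and 186 ± 18.4 CPM in floxed livers, and Cyp2b9, a cytochrome P450, 503 ± 145 CPM in LKO and 718 ± 85.9 CPM in floxed livers.

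The transferrin receptors showed small differences. Tfr2, the hepatocyte receptor that senses iron-loaded transferrin, held 4 intervals on HFD and 5 on chow, with fold changes of -0.28 to 0.23 on HFD and -0.12 to 0.34 on chow. Its most accessible HFD interval, chr5:137580058-137580558, had 26.7, 23.2, 20.1 and 16.9 CPM in LKO livers and 19.9, 22.0, 15.3 and 16.8 CPM in floxed livers, which overlap. Tfrc, the receptor through which most cells take up iron, held 1 interval per table, at its start. On HFD it had 19.6, 16.1, 14.2 and 15.8 CPM in LKO livers and 17.8, 18.2, 12.1 and 15.3 CPM in floxed livers, a fold change of 0.05 (SE 0.16). On chow its fold change was -0.05 (SE 0.14).

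Hamp, encoding hepcidin, lies at chr7:30942368-30944029 on the minus strand, close to a paralogue, Hamp2. All 8 chow intervals of Hamp had fold changes below 0, between -0.81 and -0.03 with a median of -0.52. All LKO livers lay below all floxed livers at 4 of them, as at 6.04% of the chow table. None was called by edgeR, with 5 at an unadjusted p under 0.05, against 6.77% of the chow table. DESeq2 called 2 and limma 0, against 0.617% and 0.768% of the chow table. The most accessible interval, chr7:30941065-30941565, lies past the end of the gene, and its mean level stood at percentile 99.96 of chow intervals. It had 68.0, 77.1 and 78.1 CPM in LKO livers, against 89.3, 122 and 155 CPM in floxed livers. Floxed livers spread widely and LKO livers sat close together below them, with a fold change of -0.72 (SE 0.17). At chr7:30941771-30942271 LKO livers had 38.7, 42.5 and 44.8 CPM and floxed livers 51.6, 80.2 and 88.8 CPM, a fold change of -0.81 (SE 0.18). The chow interval at the start of Hamp overlaps the promoter window printed above. Its level was 38.0 ± 8.28 CPM in LKO and 44.8 ± 15.5 CPM in floxed livers (SD, n = 3), and the genotypes overlapped.

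On HFD the same Hamp region was far less accessible, with no interval above 15.3 CPM on average, though levels of the separately normalised tables are set side by side here only as a description. The matched interval chr7:30941054-30941554 had 13.6, 8.05, 6.53 and 7.95 CPM in LKO livers, against 8.20, 35.4, 9.17 and 17.5 CPM in floxed livers. Floxed 2 stood far above all other livers and the groups overlapped. The fold change was -0.96 (SE 0.29), not called, and lay between -1.24 and -0.35 as single libraries were left out. The Hamp sum was 72.6, 51.1, 44.5 and 42.2 CPM in HFD LKO livers, against 44.6, 138, 42.8 and 73.3 CPM in floxed livers, a fold change of -0.51 (SE 0.27) that moved between -0.71 and -0.02 as single libraries were left out. On chow the sum was 285, 295 and 303 CPM in LKO livers, against 347, 430 and 564 CPM in floxed livers, a fold change of -0.60 (SE 0.16) with no overlap. In 6 matched intervals the HFD minus chow difference lay between -0.22 and 0.45, with 0 called by edgeR and 0 at an unadjusted p under 0.05. Hamp2 had fold changes of -1.04 to -0.23 over 3 HFD intervals and of -0.59 to 0.16 over 6 chow intervals, with 0 called. Near-identical stretches of the 2 genes could share reads, so how they split the signal is uncertain.

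Hfe, an upstream regulator of hepcidin that binds transferrin receptors, held 7 HFD and 4 chow intervals. Its fold changes ran from -0.17 to 0.18 on HFD and from -0.13 to 0.25 on chow, with overlap at every interval. The Hfe sum was 63.3 ± 1.15 CPM in LKO and 61.9 ± 5.87 CPM in floxed livers on HFD (SD, n = 4), and 51.9 ± 4.25 CPM in LKO and 51.2 ± 5.92 CPM in floxed livers on chow (SD, n = 3).

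Ferritin is built from heavy and light chains. Ftl1, the ferritin light chain, had 6 of 6 HFD fold changes below 0, from -0.61 to -0.01, and 4 of 5 chow fold changes above 0. At chr7:45458115-45458615, inside the gene, LKO livers had 10.8, 9.04, 7.44 and 10.7 CPM and floxed livers 13.4, 16.6, 14.3 and 13.8 CPM. All LKO livers lay below all floxed livers, with a fold change of -0.61 (SE 0.17). None of the 6 was called by edgeR, DESeq2 or limma, and 4 had an unadjusted edgeR p under 0.05, against 10.2% of all HFD intervals. The most accessible Ftl1 interval, chr7:45457045-45457545, had 41.3, 27.6, 27.9 and 35.4 CPM in LKO livers and 37.8, 61.1, 33.0 and 38.1 CPM in floxed livers, which overlap, with floxed 2 highest. The Ftl1 sum had a fold change of -0.35 (SE 0.11) on HFD and 0.07 (SE 0.17) on chow. Ferritin genes have processed copies elsewhere in the genome, so reads inside exons may be shared.

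Fth1, the ferritin heavy chain with ferroxidase activity, held 9 HFD and 8 chow intervals. Fold changes ran from -0.30 to 0.18 on HFD and from -0.39 to 0.14 on chow, and the genotypes overlapped at each. The Fth1 sum averaged 109 ± 9.09 CPM in LKO and 111 ± 22.7 CPM in floxed livers on HFD, and 78.2 ± 8.0 CPM in LKO and 83.7 ± 12.6 CPM in floxed livers on chow.

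Cp, encoding caeruloplasmin, lies at chr3:19956933-20009750 and held 21 intervals per table. On HFD, 2 of the 8 intervals in a patch 30 to 40 kb into the gene rose in LKO livers. At chr3:19994029-19994529 LKO livers had 8.58, 12.2, 6.14 and 9.60 CPM, against 4.94, 3.12, 4.02 and 4.72 CPM in floxed livers, a fold change of 1.13 (SE 0.23). At chr3:19996346-19996846 LKO livers had 7.08, 12.7, 7.70 and 11.1 CPM, against 3.26, 4.49, 5.15 and 4.95 CPM in floxed livers, a fold change of 1.11 (SE 0.23). The genotypes did not overlap at either, and LKO 2 was highest at both. The second interval also lies within the neighbouring gene Hps3, whose bounds overlap those of Cp, and went to Cp by the precedence stated above. Neither was called without LKO 2, and 1 of the 2 was called without LKO 4 and without floxed 2. DESeq2 and limma each called 2 intervals at Cp.

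The 8 HFD intervals of that patch ran from 0.37 to 1.13 with a median of 0.79, whereas the 9 in the first 25 kb and before the start ran from -0.38 to -0.01. On chow the 5 intervals of the patch ran from -0.37 to -0.10. The HFD minus chow difference was 1.53 and 1.42 at the called intervals (edgeR adjusted p = 0.244 and 0.215), so a difference between diets was not called there. The Cp sum averaged 163 ± 29.4 CPM in LKO and 148 ± 14.0 CPM in floxed livers on HFD (fold change 0.14, SE 0.11). The interval at the start of Cp covers the promoter window printed above. On HFD its level was 10.8 ± 1.39 CPM in LKO and 10.9 ± 2.26 CPM in floxed livers.

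**Figure D3:**
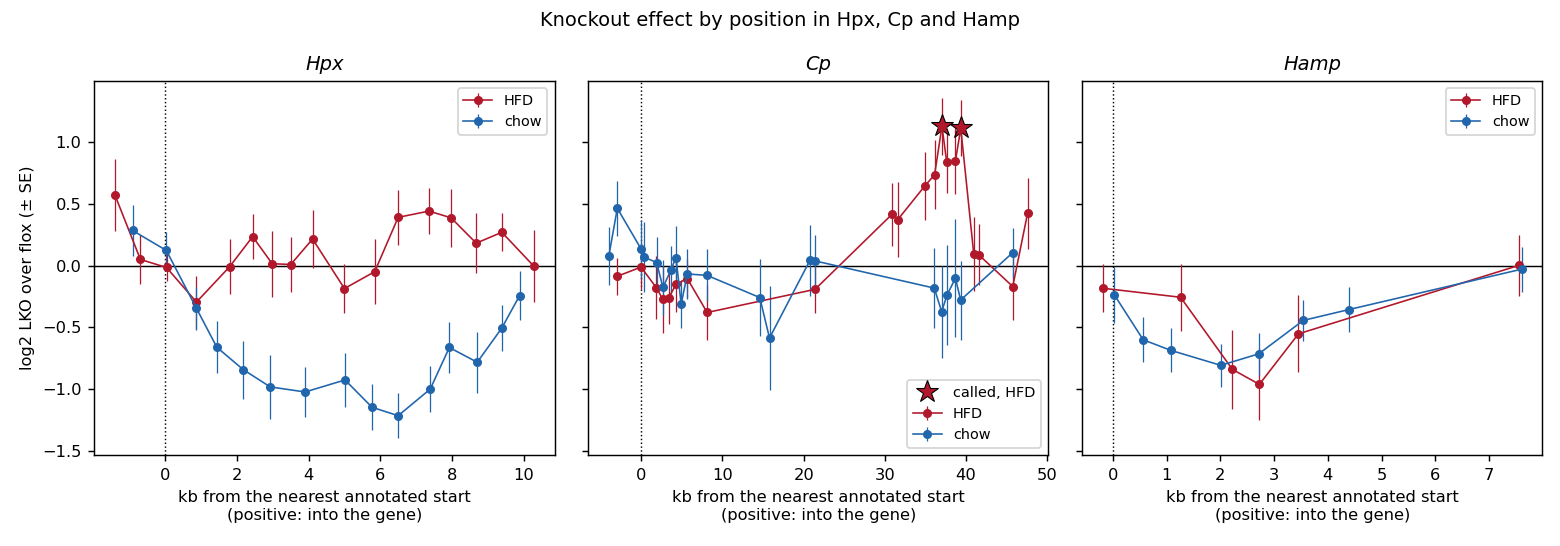
Log2 fold change, LKO over floxed, with its SE against distance in kb from the nearest annotated start for Hpx, Cp and Hamp, on HFD (red) and chow (blue); stars are called intervals. Hpx fold changes on chow reach -1.22 inside the gene and are near 0 at the start, and the Cp patch with fold changes up to 1.13 appears on HFD.

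Hpx, encoding haemopexin, lies at chr7:105591611-105600116 on the minus strand. On chow, the 8 intervals from 1 to 7.5 kb into the gene had fold changes of -1.22 to -0.66 with a median of -0.99. All LKO livers lay below all floxed livers at each of the 8, as at 6.04% of the chow table. These neighbouring intervals come from the same livers and are not separate evidence. None was called by edgeR. Over all 15 chow intervals, 11 had an unadjusted edgeR p under 0.05, against 6.77% of the chow table. DESeq2 and limma each called 5, against 0.617% and 0.768% of the chow table. Without floxed 2, edgeR called 9 at Hpx and 0.685% of the whole chow table. At chr7:105593367-105593867 LKO livers had 7.11, 6.90 and 5.42 CPM, against 16.4, 12.5 and 16.1 CPM in floxed livers, a fold change of -1.22 (SE 0.18). The start interval, which overlaps the promoter printed above, had 43.5, 34.4 and 46.8 CPM in LKO livers and 40.0, 32.6 and 42.0 CPM in floxed livers, with overlap. The 3 intervals within 1 kb of the start had a median of 0.12.

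On HFD the 9 intervals from 1 to 7.5 kb ran from -0.19 to 0.44 with a median of 0.02. At chr7:105593367-105593867 LKO livers had 12.2, 26.0, 9.66 and 14.0 CPM and floxed livers 15.1, 12.9, 7.79 and 11.5 CPM, which overlap, and LKO 2 stood above the rest. At chr7:105592508-105593008 LKO livers had 23.6, 42.1, 18.5 and 26.6 CPM and floxed livers 27.4, 18.5, 13.7 and 22.1 CPM, with LKO 2 again highest. These are the intervals at which the knockout difference itself differed between the diets, by 1.64 (SE 0.35, edgeR adjusted p = 0.0482) and 1.47 (SE 0.31, adjusted p = 0.0447), more positive on HFD. The genes were chosen with these data known, so these p-values are no independent support. Over 12 matched Hpx intervals the median difference was 1.01, with 9 at an unadjusted p under 0.05, as had 7.44% of all matched intervals. In the whole matched set of 73945 intervals, 0.134% were called higher on HFD, and Hpx held both calls among the 89 at the iron and haem genes. There were 0 calls when any of 10 of the 14 libraries was left out, HFD LKO 2 among them, and 4 without chow floxed 2. Without chow floxed 2, 0.5% of all matched intervals were called, against 0.183% with all libraries. Diet is also the table in which an animal was counted, with its own depth and intervals, so diet and table cannot be told apart. On chow the Hpx sum was 170, 149 and 173 CPM in LKO livers, against 265, 183 and 264 CPM in floxed livers, a fold change of -0.53 (SE 0.14) with no overlap.

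Hp, encoding haptoglobin, lies at chr8:109575128-109579172 and held 10 intervals per table. Fold changes ran from -0.52 to 0.26 on HFD and from -0.11 to 0.50 on chow. At chr8:109584191-109584691, outside the gene, chow LKO livers had 20.8, 14.0 and 17.3 CPM and floxed livers 13.8, 10.6 and 12.4 CPM. All 3 LKO livers lay above all 3 floxed livers, by a fold change of 0.50 (SE 0.18) that was not called.

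**Figure D4:**
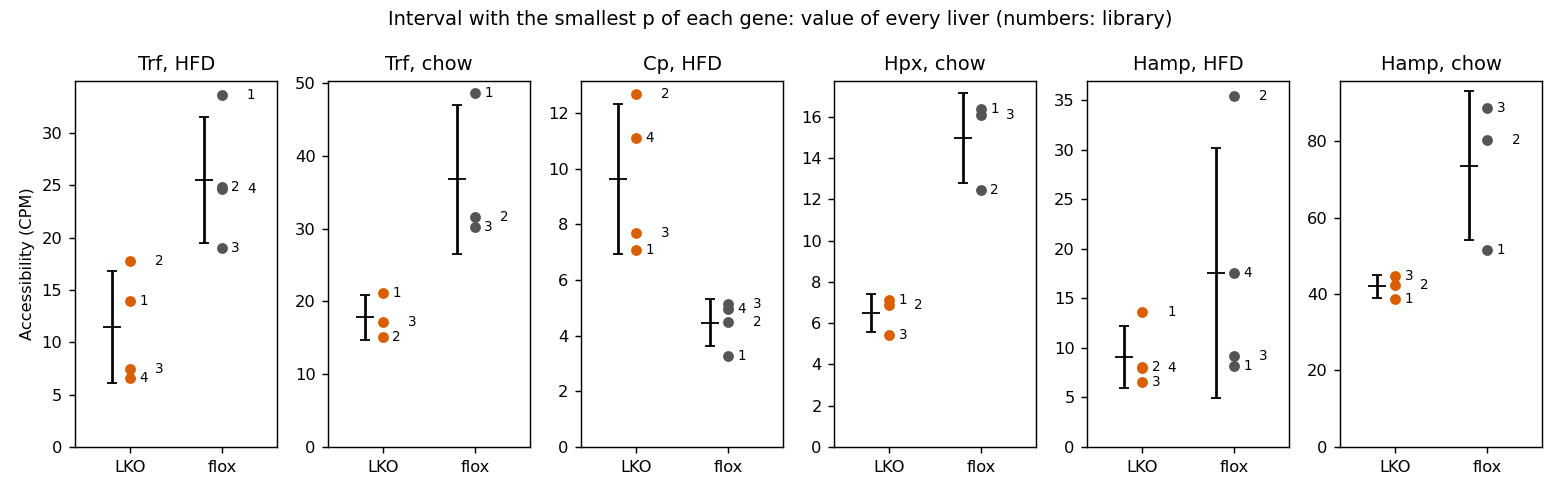
Accessibility (CPM) of every liver at the interval with the smallest p of Trf, Cp, Hpx and Hamp, in the diet named above each panel, with LKO left of floxed; numbers identify libraries and bars are means and SD. Groups are apart in the Trf, Cp, Hpx and chow Hamp panels, and in the HFD Hamp panel floxed 2 at 35.4 CPM stands far above the rest.

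At annotated starts the genotypes overlapped throughout. Starts were known for 8 of the 10 genes, all but Trf and Hp, and an interval covered a start in each of the 8. These were 9 intervals per table, with fold changes of -0.28 to 0.05 (median -0.02) on HFD and -0.24 to 0.34 (median 0.02) on chow. None was called by edgeR, DESeq2 or limma, and 0 had an unadjusted p under 0.05. The sums over each gene's intervals gave 0 calls of 10 on both diets by all 3 tools. Of all 16273 genes with an HFD interval, edgeR called 0.344%, DESeq2 0.762% and limma 0.498%, and of 15926 on chow they called 0%, 0.17% and 0.00628%. At an unadjusted p under 0.05 there were 2 of the 10 sums on HFD and 3 on chow, against 1628 of 16273 and 1045 of 15926 genes. On chow the genotypes did not overlap for the sums of Trf, Hamp and Hpx. The share of all chow sums without overlap was not counted, and of single chow intervals 11.7% had none.

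Lists of other genes of the pathway were read beside these. Of 40 genes of iron import, export and hepcidin control, 37 held intervals. On HFD, 2 of the list's 429 intervals were called, both higher, near the 0.448% called higher in the HFD table. Both were among the 5 intervals of Scara5, a receptor that takes up ferritin. At chr14:65666024-65666524 Scara5 had 5.04, 7.39, 8.10 and 5.43 CPM in LKO livers, against 2.81, 2.54, 3.39 and 3.69 CPM in floxed livers, and rose by 1.06 (SE 0.25) with no overlap. At chr14:65715982-65716482 it had 6.55, 8.38, 10.8 and 6.19 CPM in LKO livers, against 1.69, 2.15, 6.28 and 2.42 CPM in floxed livers, and rose by 1.37 (SE 0.30), with floxed 3 above LKO 4. DESeq2 called 2 intervals of this list on HFD and limma 1, where they called 0.784% and 0.62% of the HFD table. The list's median fold change was -0.00 over 429 HFD intervals and 0.00 over 336 chow intervals, with 0 called on chow by all 3 tools. At an unadjusted p under 0.05 there were 35 of the 429 on HFD, where the HFD table had 10.2%. On chow there were 25 of the 336, near the 6.77% of the chow table. All 12 genes of haem breakdown and uptake held intervals, with 0 called by edgeR on either diet. At an unadjusted p under 0.05 there were 12 of 124 intervals on HFD and 3 of 84 on chow, no larger shares than the 10.2% and 6.77% of the tables. DESeq2 and limma called 0 of these on HFD and 2 each on chow, where they called 0.617% and 0.768% of the chow table.

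Of 18 genes of the interleukin 6 acute phase response, 2 held an interval that rose on HFD. Hamp, Hp, Hpx and Cp also belong to this response. The 2 calls were among 230 intervals, where 0.448% of the HFD table was called higher. Orm2, an acid glycoprotein, rose by 1.01 (SE 0.24) at chr4:63364263-63364763, with 5.58, 8.71, 8.88 and 5.81 CPM in LKO livers and 4.83, 3.12, 3.14 and 3.23 CPM in floxed livers. Saa2, a serum amyloid A, rose by 1.02 (SE 0.25) at chr7:46753427-46753927, with 7.30, 13.8, 5.88 and 7.20 CPM in LKO livers and 4.83, 3.32, 5.15 and 3.69 CPM in floxed livers. On HFD, DESeq2 called 3 intervals of this list and limma 0, where they called 0.784% and 0.62% of the HFD table. The list's median was 0.09 over 230 HFD intervals. On chow it was -0.14 over 178 intervals, with 0 called by edgeR. DESeq2 and limma called 21 each, against 0.617% and 0.768% of the chow table. At an unadjusted p under 0.05 there were 28 on HFD and 49 on chow, where the tables had 10.2% and 6.77%.

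Markers of other liver cells were read for the same livers, and their part in the differences above was not tested. Kupffer cells, which recycle iron from red cells, held intervals in 9 of 10 markers on HFD (none in Timd4), with a summed level of 143 to 167 CPM in LKO and 115 to 161 CPM in floxed livers. On chow, 7 of 10 held intervals, with 68.1 to 99.0 CPM in LKO and 78.2 to 115 CPM in floxed livers. The 10 markers of sinusoidal endothelium summed to 605 to 698 CPM in LKO and 633 to 726 CPM in floxed livers on HFD. On chow they summed to 512 to 551 CPM in LKO and 575 to 583 CPM in floxed livers, with no overlap. Erythroid markers held intervals in 6 of 10 genes on HFD and 7 of 10 on chow, with none at Hba-a1, Hba-a2 or Hbb-bs in either table. They summed to 116 to 138 CPM in LKO and 118 to 137 CPM in floxed livers on HFD, and to 125 to 144 CPM in LKO and 134 to 153 CPM in floxed livers on chow. Stellate cell markers summed to 99.5 to 128 CPM in LKO and 91.7 to 116 CPM in floxed livers on HFD, and to 124 to 147 CPM in LKO and 125 to 153 CPM in floxed livers on chow. Lymphocyte markers, found in 5 of 10 genes on HFD and 4 of 10 on chow, summed to 78.8 to 83.3 CPM in LKO and 73.6 to 88.8 CPM in floxed livers on HFD. On chow they summed to 88.4 to 106 CPM in LKO and 73.0 to 81.2 CPM in floxed livers, with no overlap. Of all single chow intervals, 11.7% had no overlap between genotypes, and no such share was counted for sums.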

How the data were processed

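The authors deposited 1 table of whole-number counts per diet, reads per 501 bp interval and library, in mm10 coordinates per the labels. Tools listed by the submitters' processing notes include bedtools, HOMER 4.11, MACS2 2.2.7.1, Bowtie2 2.4.2 and Trim Galore 0.6.7, with no roles. Neither duplicate removal, transposase offset nor pooling for peak calling is described there. HFD columns match single samples, while chow columns give the genotype and a number that was not matched to a sample label.

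Genotype was tested per table in edgeR 4.0.16 (R 4.3.3) with TMM factors, filterByExpr (0 intervals removed) and a quasi-likelihood fit. P-values were adjusted by Benjamini-Hochberg over the whole table, with a threshold of 0.05. Gene sums were fitted likewise. CPM values use TMM-scaled totals. The HFD minus chow effect was tested in 1 fit of 73945 intervals matched with at least 50% overlap. DESeq2 1.42.0 and limma 3.58.1 served as alternatives, with other scalings, filters, assignments and left-out libraries. The fits were tested on simulated data. No library repeated another of its own group, since pairs within a group gave chi-square values of 2.49 to 12.7 per degree of freedom. Pairs from different groups were not compared in this way.

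Members, lists and tests were chosen with earlier results of these data known. Named intervals are each gene's most accessible, that with the smallest p, and every called one. The second interval with a called HFD minus chow difference, the stretches and intervals matched to named ones were chosen after their values were seen. Positions are 1-based. Genes of the RefSeq table matched by symbol, and starts came from its promoter table.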

Additional observations from a re-analysis of the deposited data

Results flagged for a closer look

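In 72 groups of 4 HFD livers, a single value stood apart from the others in 4, and chance alone gives about 1 in 20. At the start of Fth1, floxed 2 had 22.3 CPM, where the other floxed livers had 16.8 to 17.5 CPM. At the start of Hpx, LKO 2 had 29.7 CPM, where the other LKO livers had 35.4 to 36.3 CPM. At the Hp interval chr8:109575850-109576350, floxed 4 had 20.3 CPM, where the other floxed livers had 15.1 to 15.8 CPM. The Hp sum was 173 CPM in LKO 2 and 115 to 120 CPM in the other LKO livers. The knockout effect was called different between diets at Hpx, by 1.64 at chr7:105593367-105593867 and by 1.47 at chr7:105592508-105593008, HFD minus chow. Both were tested in the edgeR fit of all 14 libraries (adjusted p = 0.0482 and 0.0447). Neither stayed called with RLE factors or without HFD LKO 2, and diet and table cannot be told apart.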

How the results depend on the processing

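On HFD, the 10 called intervals became 4 with DESeq2, 18 with limma and 23 with a replicate block, and ranged from 3 to 21 as single libraries were left out. Of the whole HFD table, 0.751% was called in the main fit and 1.34% with the block. That share ranged from 0.287% to 1.12% as single libraries were left out. The 10 were among the calls of limma and of the block fit, and 3 of them among those of DESeq2. On chow, the count of 0 became 16 with DESeq2, 17 with limma and 5 without both libraries numbered 2, and ranged from 0 to 16 with single libraries left out. Of the whole chow table, 0.0227% was called in the main fit and 0.378% without both libraries numbered 2. That share ranged from 0% to 0.685% with single libraries left out. The 2 calls of the HFD minus chow difference became 0 with RLE factors and ranged from 0 to 4 with single libraries left out. Called gene sums on HFD, 0 in all, became 2 with the replicate block (Trf and Ftl1), which called 2.16% of all HFD sums. The count ranged from 0 to 1 with single libraries left out, as did that on chow. The other alternatives kept these counts within 1.5 times, and the fold changes of the 44 named intervals moved by less than the spread between livers under every alternative run. The cause of these shifts was not tested. HFD libraries of the same number did not deviate together in every pair (correlations 0.07, 0.13, 0.18 and -0.01), so the block pairs by number only. No block by number was fitted for chow or for the HFD minus chow difference, because the numbered chow columns could not be matched to single samples. The part of the library number in the chow counts was therefore not modelled. With 3 or 4 livers per group, small differences are not detectable, and depth in HFD libraries is less than in chow libraries.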
